A study of Homo sapiens with 12 samples.

Results

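The data are the RNA levels of 10 genes in prostate cancer cells after loss of BRG1, 9 of them markers of epithelial or mesenchymal cells. BRG1 is an ATPase of the SWI/SNF chromatin remodelling complex and is encoded by SMARCA4. The genes are the keratins KRT8, KRT18 and KRT19, the adhesion genes CDH1 and EPCAM, the claudins CLDN3, CLDN4 and CLDN7, the mesenchymal filament gene VIM, and TM4SF1. They are 10 of the 63568 genes in the deposited table and were found by their Ensembl identifiers. TM4SF1 was chosen by its fall in TPM, transcripts scaled to a fixed total in each library, in the BRG1 depleted libraries of these data, so its values are given as a description and with no test. The other 9 mark epithelial or mesenchymal cells, and this set, like the gene lists below, was put together with earlier results of these data known, so its tests are not independent of that choice.

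LNCaP is an androgen-responsive cell line grown from a prostate cancer metastasis. The cells were transfected with 1 of 2 siRNAs against SMARCA4 or with a pool of non-targeting siRNAs (si-NT), and polyadenylated RNA was sequenced 72 h and 144 h later. For the later time point the cells of every arm were split at 72 h and transfected again. At each time point there were 2 si-NT libraries and 4 BRG1 depleted libraries, 2 for each siRNA, which makes 12 libraries. The siRNAs carry the deposited table's numbers, 2 and 3, since the labels number them otherwise and do not say which is which. In 1 label at 72 h the title and the characteristics give different siRNA numbers, which leaves the BRG1 depleted group as it is. All results are from 1 cell line, and whether the duplicates came from separate cultures is not stated. The p-values thus measure the spread between these libraries, which may be technical. In the main comparison the 4 BRG1 depleted libraries of a time point form 1 group. Its spread, and any SD over these 4 libraries, therefore also holds differences between the siRNAs.

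Keratins form the intermediate filaments of epithelial cells. A filament needs a type II partner such as keratin 8 and a type I partner such as keratin 18 or keratin 19, and the pair of keratins 8 and 18 is typical of simple and luminal epithelia, including the luminal cells of the prostate. E-cadherin, the CDH1 product, holds neighbouring cells together at adherens junctions, and claudins form the strands that seal tight junctions. Vimentin is the filament protein of mesenchymal cells, and an exchange of E-cadherin for vimentin is the textbook sign of epithelial-mesenchymal transition.

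SMARCA4 itself was at 73.4 to 107 TPM in the si-NT libraries and at 11.4 to 21.7 TPM in the BRG1 depleted libraries, with log2 fold changes of -2.07 at 72 h and -2.66 at 144 h. The labelled cell type was checked with 5 lists of marker genes. All 6 prostate luminal markers, KLK3 among them, reached 1 TPM, with summed levels of 1057 to 2044 TPM over the libraries. No basal epithelial marker of 5 did, and none of these exceeded 0.33 TPM. Fibroblast, endothelial and leukocyte markers were also low. Of 6 fibroblast markers only COL1A1 reached 1 TPM and COL1A2 was listed at 0 in every library, of 4 endothelial markers found in the table only ESAM did, and of 6 leukocyte markers none did. Read depth cannot be read from TPM, so it and the counting error are unknown, and the spread between libraries is the measure of precision.

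In si-NT cells the 10 genes spanned a wide range of levels. Over the 4 si-NT libraries the order by mean TPM, which is scaled for gene length, was KRT18 (357 ± 15.4, SD, n = 4), KRT8 (305 ± 1.87), CLDN7 (244 ± 13.1), EPCAM (170 ± 12.9), CDH1 (118 ± 6.36), VIM (68.6 ± 10.4), CLDN4 (55.5 ± 5.91), TM4SF1 (22.7 ± 7.84), CLDN3 (16.4 ± 2.45) and KRT19 (4.79 ± 1.95). Of neighbours in this order, VIM overlapped with CLDN4 and TM4SF1 overlapped with CLDN3, and the others did not overlap. By 144 h of BRG1 depletion KRT8 was the highest of the 10 at 452 ± 35.4 TPM (n = 4), CDH1 stood before EPCAM with overlapping values, and TM4SF1 was the lowest at 0.95 ± 0.151 TPM.

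**Figure D1:**
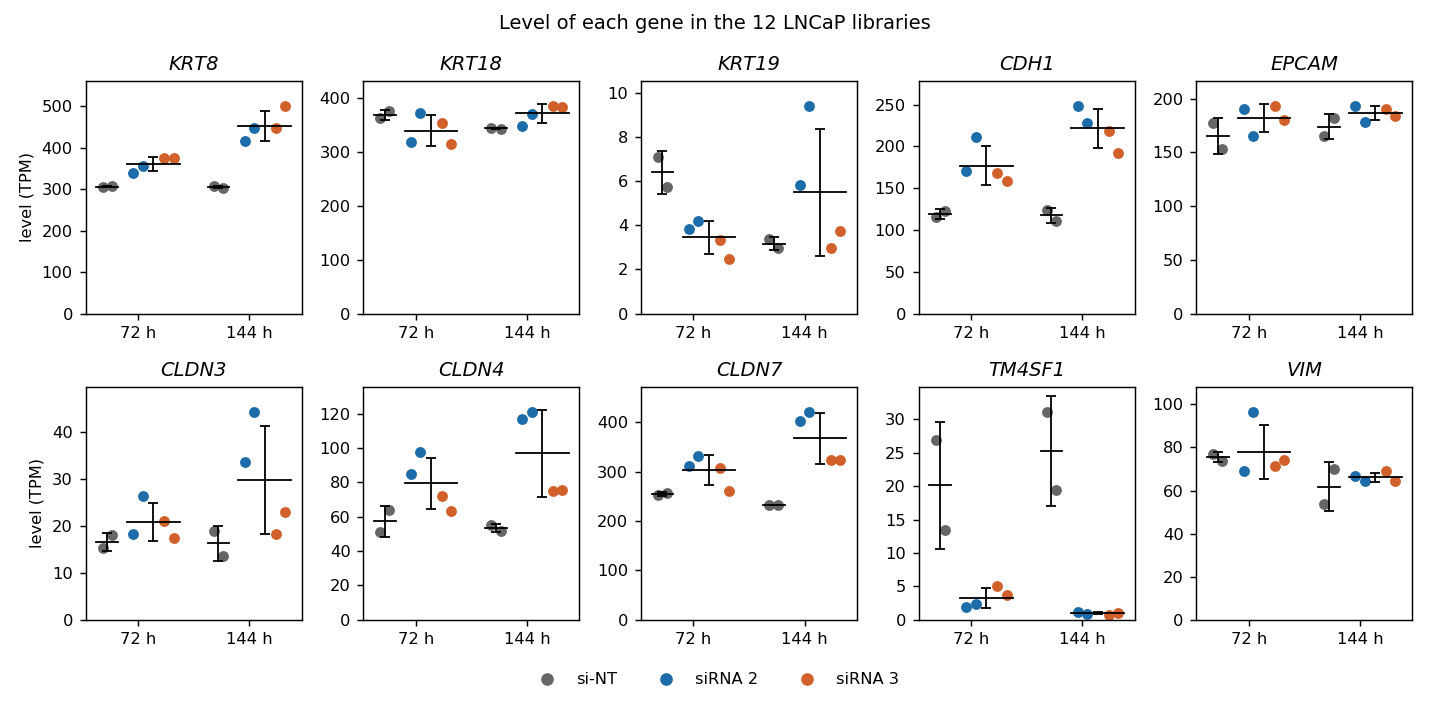
Level of the 10 genes in TPM (vertical axis from 0, 1 panel a gene) in each of the 12 libraries at 72 h and 144 h, coloured by siRNA, with the mean of each group as a line and its SD as a bar. All 4 BRG1 depleted libraries lie above both si-NT libraries at both time points for KRT8, CDH1 and CLDN7, and below both for TM4SF1, which is between 0.79 and 1.15 TPM at 144 h.

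The main comparison asked which of these genes differed between BRG1 depleted and si-NT cells at each time point. Genes were tested with limma on log2(TPM + 1) over the 16337 genes that reached 1 TPM in 2 or more libraries, a gene was called at a Benjamini-Hochberg adjusted p under 0.05, and all 10 genes passed the filter on low values. At 72 h none of the 9 tested genes was called, 3 had an unadjusted p under 0.05, and their median log2 fold change was 0.24 beside 0.06 over all genes. Of all genes, 1.13% were called higher and 0.557% lower at this time. The share of all genes at an unadjusted p under 0.05 was not taken, here or below. Counts at that threshold therefore have no background beside them. At 144 h CDH1, KRT8, CLDN4 and CLDN7 were called higher and none of the 9 was called lower, beside 13.6% of all genes called higher and 10.8% called lower. All 9 log2 fold changes were above 0 at 144 h, with a median of 0.56 beside 0.03 over all genes.

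The libraries of the groups did not overlap for 4 of the 9 genes at 72 h, with KRT8, CDH1 and CLDN7 above si-NT and KRT19 below. Of all genes tested, 16.3% lay wholly above and 6.93% wholly below si-NT at that time. At 144 h 5 of the 9 lay above si-NT, namely KRT8, KRT18, CDH1, CLDN4 and CLDN7, and none below, beside 26.1% above and 22.5% below among all genes.

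These changes are relative to the rest of the transcriptome, as TPM always is. With ERCC scaling, in which TPM is divided by the sum of the ERCC spike-ins, the RNA standards added to each sample, the median of all genes on the log2 scale moved to -0.11 at 72 h and -0.31 at 144 h, and none of the 9 genes was called at 144 h by limma, none also at an unadjusted p under 0.05. On that scale the log2 fold changes at 144 h were 0.50 for CDH1, 0.41 for CLDN4, 0.25 for CLDN7 and 0.16 for KRT8, with adjusted p-values of 0.351, 0.496, 0.654 and 0.755, and those of KRT18, EPCAM and VIM were below 0. SEs for CDH1, CLDN4, CLDN7 and KRT8 at 144 h were 0.32, 0.36, 0.32 and 0.28 with ERCC scaling, beside 0.13, 0.22, 0.13 and 0.08 on the TPM scale. The share of all genes called with ERCC scaling was not taken, so the lost calls cannot be said to be particular to these genes. Relative to the median of all genes on the ERCC scale CDH1 was at 0.82, CLDN4 at 0.73, CLDN7 at 0.56 and KRT8 at 0.47. The scaling multiplies every gene of a library by 1 number, so values relative to the median repeat those of the TPM scale by construction, apart from the pseudocount, and are no separate evidence. The spike-ins took 0.805% to 1.34% of TPM in si-NT libraries and 1.04% to 1.97% in BRG1 depleted libraries at 144 h.

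**Figure D2:**
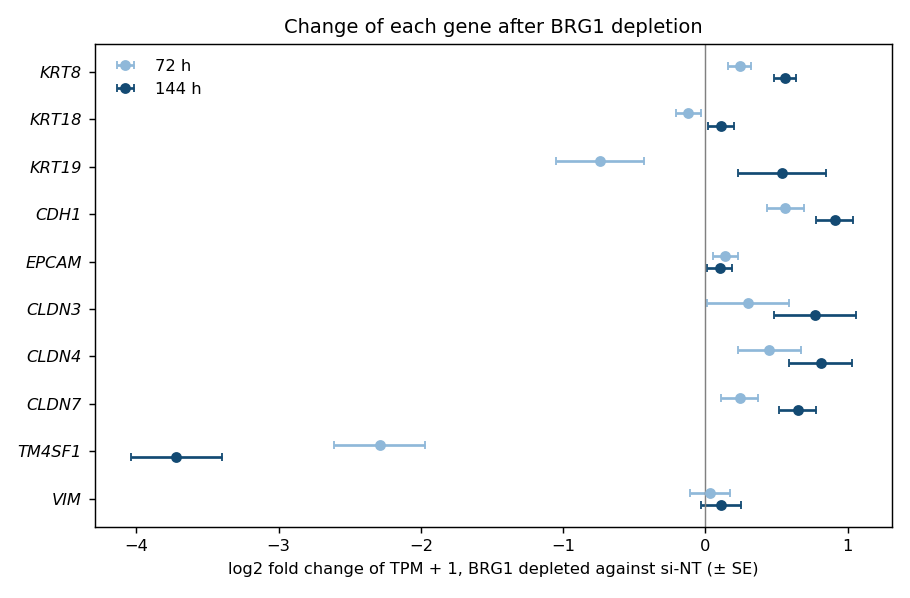
Log2 fold change of TPM + 1 between BRG1 depleted and si-NT libraries (horizontal axis) with its SE for each of the 10 genes, at 72 h (light) and 144 h (dark). CDH1, CLDN4, CLDN3, CLDN7, KRT8 and KRT19 lie between 0.54 and 0.91 at 144 h on the TPM scale. Of these, CLDN3 and KRT19 were not called, and with siRNA 3 alone they stood at 0.33 and 0.06. At 144 h KRT18, EPCAM and VIM lie near 0 and fall below it with ERCC scaling, and TM4SF1 lies at -3.72.

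KRT8, which encodes the type II keratin of simple epithelia, was the most abundant of the genes after depletion. At 72 h it was at 304 and 307 TPM in si-NT libraries, at 339 and 355 TPM with siRNA 2 and at 375 and 374 TPM with siRNA 3. At 144 h it was at 307 and 303 TPM with si-NT, at 415 and 446 TPM with siRNA 2 and at 447 and 500 TPM with siRNA 3. The si-NT libraries were nearly level across both times, and every depleted library was above them, highest at 144 h. The log2 fold change was 0.24 (SE 0.08) at 72 h with an adjusted p of 0.203, and 0.56 (SE 0.08) at 144 h with an adjusted p of 0.00109 by limma.

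KRT18 encodes the type I partner of keratin 8 and did not pass the test at either time. KRT18 levels at 72 h were 363 and 376 TPM with si-NT, 319 and 373 TPM with siRNA 2, and 353 and 315 TPM with siRNA 3. At 144 h they were 345 and 344 TPM with si-NT, 348 and 370 TPM with siRNA 2, and 386 and 383 TPM with siRNA 3. The groups overlapped at 72 h, and at 144 h the depleted libraries lay above si-NT, the lowest of them by a narrow margin. The log2 fold changes were -0.12 (SE 0.09) and 0.11 (SE 0.09), with adjusted p-values of 0.569 and 0.389, and the second was -0.29 with ERCC scaling.

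The ratio of KRT8 to KRT18 TPM within a library does not depend on how libraries are scaled, and was examined after the values were seen. It was 0.839 and 0.816 in si-NT libraries at 72 h and 0.891 and 0.882 at 144 h. In depleted libraries it was 1.06, 0.952, 1.06 and 1.19 at 72 h, and 1.19, 1.21, 1.16 and 1.31 at 144 h. No depleted library of either siRNA reached down to a si-NT library, and KRT8 exceeded KRT18 in all depleted libraries but the second of siRNA 2 at 72 h. The group means were 0.828 ± 0.016 (SD, n = 2) and 1.07 ± 0.096 (n = 4) at 72 h, and 0.886 ± 0.0058 (n = 2) and 1.22 ± 0.063 (n = 4) at 144 h.

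**Figure D3:**
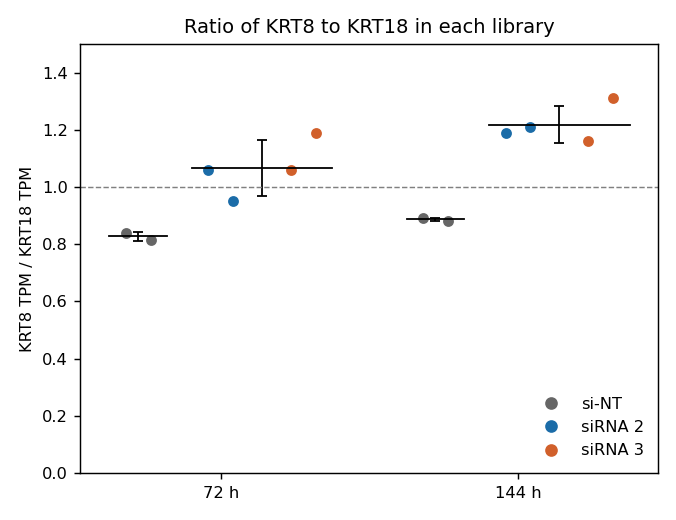
Ratio of KRT8 to KRT18 TPM (vertical axis from 0) in each library at 72 h and 144 h, coloured by siRNA, with group means as lines, SD as bars and a dashed line at 1. The 4 si-NT libraries lie between 0.816 and 0.891, and the 8 BRG1 depleted libraries between 0.952 and 1.31.

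The 2 genes lie side by side on chromosome 12 in GRCh37, KRT8 on the minus strand at 53290971 to 53343738 and KRT18 on the plus strand at 53342655 to 53346690. Their annotated exons share 525 bases on opposite strands. The libraries were made with a stranded kit, but whether strand was used in counting is not given in the sources used here, so reads from the shared bases may be assigned to either gene. Both genes also have many processed copies, which can share reads with them. The 51 KRT8 copies together held 12.2 to 15 TPM in a library and the 67 KRT18 copies 0.77 to 1.83 TPM, and reads that fit both a gene and its copy may be assigned to either. The promoter of KRT8 is shown for its ETS-type match, as the 250 bases before the start that RefSeq gives, on the minus strand of GRCh38.p14 at chr12:52926470-52926719. That start need not be the end of the GRCh37 span above, so the window need not lie next to KRT18.
KRT8: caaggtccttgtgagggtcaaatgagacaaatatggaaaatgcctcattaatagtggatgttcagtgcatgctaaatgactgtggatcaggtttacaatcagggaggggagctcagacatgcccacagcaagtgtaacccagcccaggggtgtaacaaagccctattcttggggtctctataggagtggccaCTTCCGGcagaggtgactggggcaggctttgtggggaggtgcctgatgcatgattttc
The capitals mark the letters CTTCCGG, the reverse complement of the ETS motif CCGGAAG, which 8.52% of 35116 promoters of this length hold on either strand.

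KRT19 encodes a type I keratin found in simple epithelia and ducts, and was the least abundant of the genes in si-NT cells. At 72 h KRT19 was at 7.08 and 5.71 TPM with si-NT, 3.85 and 4.19 TPM with siRNA 2, and 3.34 and 2.48 TPM with siRNA 3. By 144 h it was at 3.37 and 2.98 TPM with si-NT, 5.81 and 9.40 TPM with siRNA 2, and 2.97 and 3.76 TPM with siRNA 3. All depleted libraries were below si-NT at 72 h, whereas at 144 h the siRNA 2 libraries were above si-NT and the siRNA 3 libraries overlapped with it. The log2 fold changes were -0.74 (SE 0.31) with an adjusted p of 0.305 and 0.54 (SE 0.31) with an adjusted p of 0.242, and the si-NT libraries themselves were lower at 144 h by 0.82 (SE 0.36), adjusted p 0.974.

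CDH1 encodes E-cadherin and had the largest log2 fold change at 144 h of the 4 genes called. The 72 h libraries held CDH1 at 115 and 123 TPM with si-NT, 170.3 and 211 TPM with siRNA 2, and 168 and 158 TPM with siRNA 3. Those of 144 h held it at 124 and 111 TPM with si-NT, 248 and 228 TPM with siRNA 2, and 218 and 192 TPM with siRNA 3. Every depleted library was above every si-NT library at both times. The log2 fold change was 0.56 (SE 0.13) at 72 h with an adjusted p of 0.0554, and 0.91 (SE 0.13) at 144 h with an adjusted p of 0.000745. The call at 72 h turned on the settings, with adjusted p-values from 0.00619, when the si-NT libraries of both times were combined, to 1 with ERCC scaling. It lies on chromosome 16 of GRCh37 at 68771195 to 68869440.

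EPCAM encodes an epithelial adhesion molecule of the cell surface and differed little between groups. EPCAM levels at 72 h were 177 and 153 TPM with si-NT, 190.0 and 165 TPM with siRNA 2, and 193 and 180.1 TPM with siRNA 3. At 144 h they were 166 and 182 TPM with si-NT, 193 and 178 TPM with siRNA 2, and 191 and 184 TPM with siRNA 3. The groups overlapped at both times, and over the 12 libraries the highest value was 1.26 times the lowest. The log2 fold changes were 0.14 (SE 0.09) and 0.10 (SE 0.09), with adjusted p-values of 0.530 and 0.456, and both were below 0 with ERCC scaling.

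CLDN7 was the most abundant of the claudins. At 72 h CLDN7 was at 252 and 258 TPM with si-NT, 311 and 332 TPM with siRNA 2, and 307 and 260.1 TPM with siRNA 3. By 144 h it was at 233 and 232 TPM with si-NT, 404 and 421 TPM with siRNA 2, and 323 and 325 TPM with siRNA 3. No depleted library overlapped with si-NT, and the siRNA 2 libraries were the highest at both times. The log2 fold change was 0.24 (SE 0.13) at 72 h with an adjusted p of 0.432, and 0.65 (SE 0.13) at 144 h with an adjusted p of 0.00422.

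CLDN4, which encodes a claudin of many simple epithelia, also had its highest values with siRNA 2. The 72 h libraries held CLDN4 at 51.0 and 63.9 TPM with si-NT, 84.7 and 97.7 TPM with siRNA 2, and 72.1 and 63.5 TPM with siRNA 3. Those of 144 h held it at 55.1 and 51.8 TPM with si-NT, 117 and 121 TPM with siRNA 2, and 75.1 and 75.4 TPM with siRNA 3. The groups overlapped at 72 h through 1 siRNA 3 library and did not overlap at 144 h. The log2 fold change was 0.45 (SE 0.22) at 72 h with an adjusted p of 0.393, and 0.81 (SE 0.22) at 144 h with an adjusted p of 0.0218. In a fit of 6 groups, with the siRNAs apart, the SE at 144 h was 0.11. Without 1 of the 144 h si-NT libraries the adjusted p at 144 h was 0.0946 or 0.15, and without a filter on low values it was 0.0572.

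CLDN3 is a close relative of CLDN4 and the lowest of the claudins here. CLDN3 levels at 72 h were 15.2 and 18.0 TPM with si-NT, 18.4 and 26.4 TPM with siRNA 2, and 21.1 and 17.5 TPM with siRNA 3. At 144 h they were 18.9 and 13.6 TPM with si-NT, 33.6 and 44.2 TPM with siRNA 2, and 18.3 and 23.0 TPM with siRNA 3. The groups overlapped at both times, at 144 h through 1 siRNA 3 library. The difference at 144 h was 0.77 (SE 0.29) on the log2 scale with an adjusted p of 0.0739 by limma. With 1 library left out it ranged from 0.55 to 1.00. Without that siRNA 3 library it was 0.97 with an adjusted p of 0.0217. Without the first or the second siRNA 2 library of 144 h it was 0.69 or 0.56, with adjusted p-values of 0.144 and 0.132. With ERCC scaling it was 0.39 with an adjusted p of 0.577.

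CLDN3 and CLDN4 are neighbours on chromosome 7 of GRCh37. CLDN3 is on the minus strand at 73183327 to 73184600 and CLDN4 on the plus strand at 73213872 to 73247020. Between these annotated spans lie 29.3 kb. The RefSeq start used for the CLDN4 promoter below is not the start of its span. The ratio of CLDN4 to CLDN3 TPM was 3.45 ± 0.15 (SD, n = 2) and 3.84 ± 0.53 (n = 4) at 72 h in si-NT and depleted libraries, and 3.36 ± 0.63 (n = 2) and 3.40 ± 0.57 (n = 4) at 144 h. At each time point the group means differed by less than the SD of the depleted libraries. CLDN7 lies on chromosome 17 at 7163222 to 7167302 on the minus strand. Of its exon bases, 269 belong also to another protein-coding gene model, which had 0 to 0.58 TPM. It shares 38 with ELP5 on the opposite strand, which was at 43.3 to 59.3 TPM, so some reads may be assigned to either.

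The promoters of the 3 claudins are shown because the genes lay in the same direction at 144 h, each as the 250 bases before its RefSeq start in GRCh38.p14. They are chr7:73770271-73770520 on the minus strand for CLDN3, chr7:73830746-73830995 on the plus strand for CLDN4 and chr17:7263214-7263463 on the minus strand for CLDN7.
CLDN3: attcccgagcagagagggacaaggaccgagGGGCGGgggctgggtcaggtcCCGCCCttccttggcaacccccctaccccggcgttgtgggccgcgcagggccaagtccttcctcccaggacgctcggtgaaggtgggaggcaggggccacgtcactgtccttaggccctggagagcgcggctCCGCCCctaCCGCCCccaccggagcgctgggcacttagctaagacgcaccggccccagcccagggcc
CLDN4: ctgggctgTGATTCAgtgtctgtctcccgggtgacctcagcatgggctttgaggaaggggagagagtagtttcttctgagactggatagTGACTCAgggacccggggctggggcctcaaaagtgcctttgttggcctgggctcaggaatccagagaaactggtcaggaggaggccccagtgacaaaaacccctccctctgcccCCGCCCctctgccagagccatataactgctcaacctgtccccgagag
CLDN7: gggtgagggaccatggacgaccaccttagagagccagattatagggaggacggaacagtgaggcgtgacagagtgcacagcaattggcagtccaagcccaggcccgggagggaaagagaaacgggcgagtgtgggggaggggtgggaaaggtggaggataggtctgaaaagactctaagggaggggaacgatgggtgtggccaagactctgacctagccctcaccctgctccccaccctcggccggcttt
The capitals mark matches, on either strand, to the 7 motifs searched. These were the E-box CAGGTG, to which the ZEB and SNAI repressors bind, the AP-1 motif TGANTCA of the JUN and FOS factors, the forkhead (FOX) motif TGTTTAC, the ETS motif CCGGAAG, the SP1-type GC box GGGCGG, the promoter element TATAAA, and a motif of the grainyhead (GRHL) type, AACCNGTT. CLDN3 holds 4 GC boxes. CLDN4 holds AP-1 matches that begin 242 and 161 bases before the start and a GC box that begins 47 bases before it, and CLDN7 holds no match in this window. Of all promoters of this length, 42.6% hold a GC box and 6.57% an AP-1 match. The E-box, which 17.5% of promoters hold, is in none of the 6 promoters of the 10 genes that were found, nor are the forkhead (2.98%), TATAAA (10.7%) and grainyhead-type (1.49%) letters. Promoters were found for KRT8, CLDN3, CLDN4, CLDN7, TM4SF1 and VIM.

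TM4SF1, which encodes a small surface protein of the L6 family with 4 membrane spans, was the gene with the largest difference of the 10, and it was chosen for this. At 72 h TM4SF1 was at 26.8 and 13.4 TPM with si-NT, 1.88 and 2.39 TPM with siRNA 2, and 5.13 and 3.66 TPM with siRNA 3. By 144 h it was at 31.1 and 19.4 TPM with si-NT, 1.15 and 0.90 TPM with siRNA 2, and 0.79 and 0.96 TPM with siRNA 3. The si-NT libraries of a time point differed widely from each other, yet the lowest of them was well above the highest depleted library. The mean fell by 83.8% at 72 h and fell by 96.2% at 144 h, with log2 fold changes of -2.29 (SE 0.32) and -3.72 (SE 0.32) on the log2(TPM + 1) scale, which understates the change of low values. With ERCC scaling they were -2.47 and -4.01. Its GRCh37 position is chromosome 3, 149086809 to 149095479, on the minus strand.

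None of the other L6 family genes that were listed, TM4SF4, TM4SF5, TM4SF18, TM4SF19 and TM4SF20, passed the filter on low values, and the highest value of any of them was 0.86 TPM, for TM4SF18. TM4SF1 was thus the one gene of the 6 with a level above 1 TPM. Its promoter, the 250 bases before the RefSeq start at chr3:149377650-149377899 on the minus strand of GRCh38.p14, is shown for the gene with the largest difference.
TM4SF1: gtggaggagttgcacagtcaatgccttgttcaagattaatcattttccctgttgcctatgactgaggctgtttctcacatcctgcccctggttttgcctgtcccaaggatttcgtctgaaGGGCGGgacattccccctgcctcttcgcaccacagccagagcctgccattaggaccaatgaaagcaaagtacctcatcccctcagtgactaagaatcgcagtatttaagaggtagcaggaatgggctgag
The capitals mark a GC box that begins 130 bases before the start.

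VIM, the mesenchymal gene of the set, did not pass the test at either time. The 72 h libraries held VIM at 77.1 and 73.8 TPM with si-NT, 69.0 and 96.4 TPM with siRNA 2, and 71.5 and 74.2 TPM with siRNA 3. Those of 144 h held it at 53.7 and 69.9 TPM with si-NT, 66.7 and 64.4 TPM with siRNA 2, and 68.9 and 64.6 TPM with siRNA 3. The groups overlapped at both times, and the depleted libraries at 144 h lay close together between the si-NT libraries. The log2 fold changes were 0.03 (SE 0.14) and 0.11 (SE 0.14), with adjusted p-values of 0.948 and 0.607, and both were below 0 with ERCC scaling. VIM-AS1, an antisense gene that shares 656 exon bases with VIM on the other strand, was at 4.84 to 9.21 TPM, so some reads may be assigned to either. The ratio of CDH1 to VIM TPM was 1.58 ± 0.12 (SD, n = 2) and 2.28 ± 0.15 (n = 4) in si-NT and depleted libraries at 72 h, and 1.95 ± 0.51 (n = 2) and 3.35 ± 0.35 (n = 4) at 144 h. In bulk RNA a change in the number of cells that express a gene and a change in the RNA of each cell cannot be told apart, here and for every gene above.

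The change between the groups was next compared between time points. None of the 9 genes had a change that differed by limma's interaction term at an adjusted p under 0.05, beside 0.0184% of all genes, and 3 had an unadjusted p under 0.05. The change at 144 h exceeded that at 72 h by 0.32 (SE 0.12) for KRT8, 0.41 (SE 0.18) for CLDN7 and 1.27 (SE 0.44) for KRT19 on the log2 scale, with adjusted p-values of 0.344, 0.398 and 0.330. Between si-NT cells at 144 h and 72 h none of the 9 was called by limma, as for 0% of all genes, and 1, KRT19, had an unadjusted p under 0.05.

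The siRNAs were compared with each other in a fit of 6 groups. None of the 9 genes was called by limma at 72 h, where 0.141% of all genes were and 1 of the 9, CLDN4, had an unadjusted p under 0.05. None was called at 144 h, where 0.331% of all genes were and 4 of the 9 had an unadjusted p under 0.05. These 4 were lower with siRNA 3 than with siRNA 2 at 144 h, by a log2 difference of -0.95 (SE 0.22) for KRT19, -0.88 (SE 0.23) for CLDN3, -0.65 (SE 0.12) for CLDN4 and -0.35 (SE 0.09) for CLDN7. Their adjusted p-values were 0.135, 0.166, 0.079 and 0.178. For KRT8 and CDH1 the differences were 0.14 (SE 0.08) and -0.22 (SE 0.12).

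Each siRNA was also set against the same si-NT libraries, so these values share their controls. At 144 h siRNA 2 gave 6 of the 9 genes called higher, beside 13.6% of all genes, and siRNA 3 gave 4 of the 9, beside 9.83%. KRT8, CDH1, CLDN4 and CLDN7 were called with each siRNA, with log2 fold changes of 0.49, 1.02, 1.14 and 0.82 for siRNA 2 and 0.63, 0.79, 0.49 and 0.48 for siRNA 3. CLDN3 and KRT19 were called with siRNA 2, at 1.21 and 1.01, and stood at 0.33 and 0.06 with siRNA 3. At 72 h siRNA 2 gave 2 of the 9 called higher, CDH1 and CLDN4 at 0.66 each, beside 0.937% of all genes, and siRNA 3 gave none, beside 0.428%, with 3 of the 9 at an unadjusted p under 0.05 by limma. TM4SF1 differed from si-NT by -2.68 with siRNA 2 and -1.90 with siRNA 3 at 72 h, and by -3.66 and -3.77 at 144 h.

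Other genes of the same structures were read from lists, and their counts stand beside the same 1.13% of all genes called higher and 0.557% lower at 72 h and 13.6% and 10.8% at 144 h. Of 15 other adherens junction genes 11 were tested, none was called at 72 h, where 3 had an unadjusted p under 0.05 by limma, and 3 were called higher and none lower at 144 h, with a median log2 fold change of 0.28. NECTIN2, a nectin that links neighbouring cells, was at 18.6 and 16.5 TPM with si-NT at 144 h and at 30.7 to 41.9 TPM in the depleted libraries, a log2 fold change of 1.05 (SE 0.18) with an adjusted p of 0.00197. CTNND1 and CTNNA1 encode the catenins p120 and alpha, which are part of the E-cadherin complex. Their log2 fold changes at 144 h were 0.51 (SE 0.11) and 0.36 (SE 0.11), with adjusted p-values of 0.00817 and 0.0280 by limma. Without either si-NT library of 144 h the count was 1, with CTNND1 and CTNNA1 no longer called.

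Of 28 other tight junction genes 20 were tested. At 72 h 1 was called higher and none lower, and at 144 h 4 of the 20 were called higher, beside 13.6% of all genes, and 1 lower, beside 10.8%, with a median log2 fold change of 0.28. Without either si-NT library of 144 h 3 were called in all, and without the second siRNA 3 library of that time 8 were. The gene called at both times was CGN, which encodes cingulin of the junction's cytoplasmic face. It was at 23.7 and 22.3 TPM with si-NT at 72 h, 59.98 and 61.5 TPM with siRNA 2 and 48.4 and 44.6 TPM with siRNA 3, and at 144 h at 25.8 and 21.0 TPM with si-NT, 83.3 and 68.3 TPM with siRNA 2 and 56.0 and 54.3 TPM with siRNA 3. The depleted libraries lay far above si-NT at both times, with log2 fold changes of 1.18 (SE 0.18) and 1.43 (SE 0.18) and adjusted p-values of 0.0106 and 0.000429. Its call at 72 h was lost without either si-NT library of that time (adjusted p 0.0658 and 0.0894), with the 6 libraries of that time alone (0.0615) and with ERCC scaling (0.656). TJP3, a scaffold protein gene, and CLDN12 were called higher at 144 h at 1.19 (SE 0.19) and 0.78 (SE 0.23), the CLDN12 call being lost in 4 of 12 fits with 1 library left out, and CLDN8, another claudin, was called lower at -0.82 (SE 0.16), with all depleted libraries below the si-NT libraries and the lowest at 1.34 TPM.

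Of 14 desmosome genes 9 were tested and 1 was called higher at 144 h, PPL, which encodes periplakin, at 0.94 (SE 0.20) with an adjusted p of 0.00603, or 0.0679 without the second si-NT library of 144 h. A single gene of 9 is near the 13.6% of all genes called higher. The median of the list at 144 h was 0.08, and at 72 h none was called by limma, with 2 at an unadjusted p under 0.05. Of 24 other keratins only 4 passed the filter on low values, KRT6C, KRT10, KRT75 and KRT80. KRT6C was called lower at 144 h, at -1.46 (SE 0.20) with an adjusted p of 0.00066. At 72 h it was at -0.89 (SE 0.20) with an adjusted p of 0.0492, a call that was lost in all 12 fits with 1 library left out and in 6 of 10 other settings, the replicate block (0.0646) and ERCC scaling (0.303) among them. Its level was 5.56 and 7.03 TPM with si-NT at 144 h and 1.53 to 1.77 TPM in the depleted libraries. The basal keratins KRT5 and KRT14 did not exceed 0.13 and 0.33 TPM in any library. KRT6C is a close copy of KRT6A and KRT6B, so its value may hold reads of these.

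Of 21 epithelial regulators and surface genes 20 were tested. At 72 h 1 was called higher, ST14, which encodes the surface protease matriptase, and at 144 h 7 of the 20 were called higher, beside 13.6% of all genes, and 3 lower, beside 10.8%, with a median log2 fold change of 0.24. The ST14 call at 72 h, at an adjusted p of 0.0480, was lost in 11 of 12 fits with 1 library left out and in 8 of 11 other settings, the replicate block (0.0797) among them. The 10 calls at 144 h became 6 without the first si-NT library of that time and 2 without the second. EHF and ELF3, ETS family transcription factors of epithelia, lay in opposite directions. EHF was at 189 and 149 TPM with si-NT at 144 h and at 54.8, 53.5, 43.8 and 23.5 TPM in the depleted libraries, a log2 fold change of -1.98 (SE 0.31) with an adjusted p of 0.00129. ELF3 was at 67.8 and 63.0 TPM with si-NT and at 182, 141, 118 and 128 TPM in the depleted libraries, a log2 fold change of 1.09 (SE 0.26) with an adjusted p of 0.0117, or 0.0628 and 0.103 without the first or the second si-NT library. ST14 and PRSS8, another surface protease gene, were at 0.73 (SE 0.11) and 0.70 (SE 0.22) at 144 h, and the PRSS8 call was lost in 5 of 12 fits with 1 library left out.

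Of 18 mesenchymal genes 7 were tested, and 11 did not pass the filter, among them CDH2, which was listed at 0 in every library, ZEB1, which did not exceed 1.01 TPM, and ZEB2 and TWIST2. At 72 h none was called by limma, with 3 at an unadjusted p under 0.05. At 144 h 2 of the 7 were called higher, beside 13.6% of all genes, and none lower, beside 10.8%, with a median log2 fold change of -0.11 and 3 of the 7 above 0. They were TAGLN, which encodes the actin-binding protein transgelin, at 1.46 (SE 0.19) with an adjusted p of 0.000558, and ITGA5, an integrin gene, at 0.38 (SE 0.12) with an adjusted p of 0.0346. TAGLN was at 3.29 and 3.09 TPM with si-NT at 144 h and at 9.21 to 11.9 TPM in the depleted libraries. TAGLN kept its call without any 1 library, whereas the ITGA5 call was lost in 5 of these 12 fits, without either si-NT library, either siRNA 2 library or the first siRNA 3 library of 144 h. FN1, the fibronectin gene, and SNAI1, which encodes a repressor of CDH1, are named after their values were seen. FN1 was at 59.7 to 65.6 TPM with si-NT and 32.0 to 53.4 TPM in depleted libraries at 72 h, and at 64.6 to 73.6 TPM and 33.7 to 58.9 TPM at 144 h, with no overlap at either time, log2 fold changes of -0.72 (SE 0.24) and -0.60 (SE 0.24) and adjusted p-values of 0.183 and 0.0941. SNAI1 was at -0.38 (SE 0.16) at 144 h with an adjusted p of 0.103 by limma, and its groups did not overlap at that time. Of all genes tested, 16.3% lay wholly above and 6.93% wholly below si-NT at 72 h, and 26.1% wholly above and 22.5% wholly below at 144 h. Other listed genes went the other way, with TAGLN and ITGA5 wholly above si-NT at both times, and ZEB1 and TGFBI at 144 h. ZEB1 was at 0.09 TPM with si-NT and 0.16 to 1.01 TPM in depleted libraries, and TGFBI at 0.15 to 0.43 and 0.58 to 0.88 TPM. SPARC lay wholly below at both times, at 144 h at 0.51 to 0.58 and 0 to 0.44 TPM, and ACTA2 lay wholly below at 72 h.

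With ERCC scaling, the genes of these lists that kept their call at 144 h among the 15 named were KRT6C (-1.75), CLDN8 (-1.10), EHF (-2.37) and TAGLN (1.11). CGN, TJP3, NECTIN2, PPL and ELF3 were then at 1.04, 0.80, 0.66, 0.69 and 0.69 with adjusted p-values from 0.0841 to 0.241, and CTNNA1 was at -0.04.

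**Figure D4:**
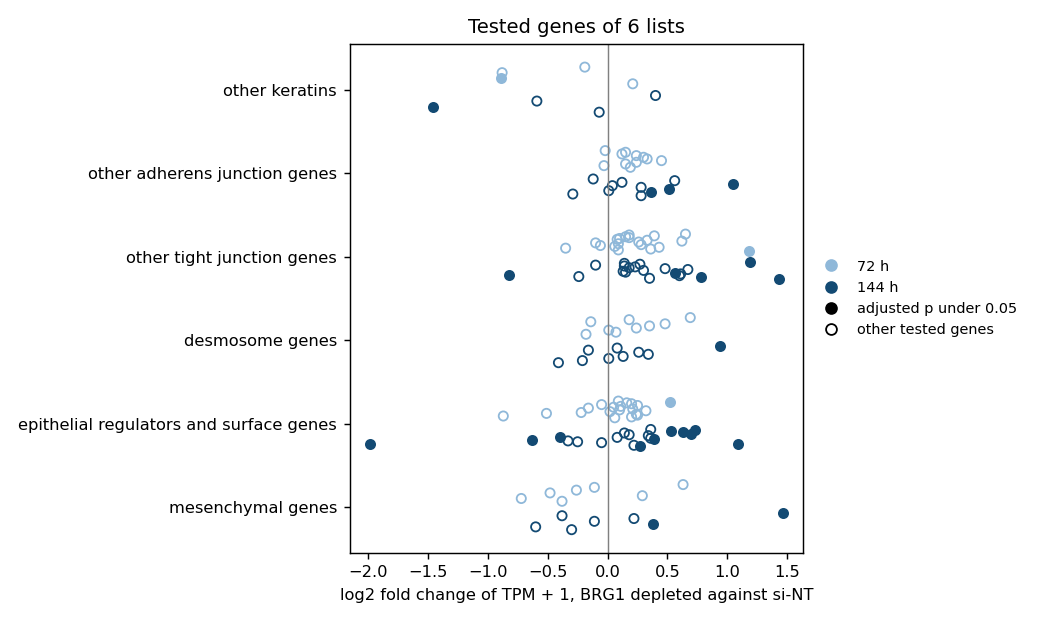
Log2 fold change of TPM + 1 between BRG1 depleted and si-NT libraries (horizontal axis) for the tested genes of 6 lists (vertical axis), at 72 h (light) and 144 h (dark), with filled points for genes at an adjusted p under 0.05. At 144 h the filled points reach from EHF at -1.98 to TAGLN at 1.46 and CGN at 1.43, on the TPM scale.

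For TM4SF1, KRT8, CDH1 and VIM the genes with the most similar levels were found by Pearson's r of log2(TPM + 1) over the 12 libraries, among 10981 tested genes with a mean of at least 5 TPM, as a description. The libraries share their treatment groups, which also shape r. For TM4SF1 they were SLPI (r = 0.975), IMPDH2 (0.972) and VPS37B (0.963). SLPI, a protease inhibitor gene, was at 20.0 to 26.6 TPM with si-NT at 144 h and at 0.94 to 3.18 TPM in the depleted libraries. For KRT8 they were STAG3L4 (0.982), HK1 and HMGXB3 (0.978 each), and for CDH1 they were ERBB2 (0.988), LITAF and a gene with no symbol here (0.987 each). ERBB2, a receptor tyrosine kinase gene, was at 49.0 to 54.8 TPM with si-NT at 144 h and at 102 to 146 TPM in the depleted libraries. The highest r with VIM was 0.845, for a gene with no symbol here, and the highest for a named gene was 0.817, for IFT27.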

How the data were processed

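RNA-seq of LNCaP cells was analysed as 12 libraries in 4 groups. As the methods and processing notes state, the authors trimmed reads with Trim Galore, aligned them to hg19 (GRCh37) with STAR 2.4.0j, counted them with featureCounts, normalised counts with ERCC spike-ins and used GENCODE v19 to determine TPM. The deposited values are TPM with the 92 spike-ins inside the fixed total, so that each library summed to 999999.2 to 1000001.5. TPM keeps no depth, and no count model was used. Of 63568 genes, 55665 were given a symbol, from GENCODE release 44 lifted to GRCh37, which also gave positions and is not the release the authors used.

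From these values, log2(TPM + 1) of the 16337 genes that reached 1 TPM in 2 or more libraries was fitted with limma 3.58.1 (lmFit, eBayes with trend, R 4.3.3) in 4 groups, or 6 to compare siRNAs, with Benjamini-Hochberg adjustment over all of them. The code of the fit was run on simulated data, with independent noise and the same change in every depleted library. This checks the code, and does not show how well changes of the size seen here are found. Other tools were Python 3.11.15, NumPy 2.4.6, pandas 2.3.3 and matplotlib 3.10.9. The members and the gene lists were chosen with earlier results of these data known. The genes named from a list were at most 4 of those called at either time, by the size of the change at 144 h. The promoters came from RefSeq. The choices varied were the scaling (median-of-ratios, quantile, ERCC), the pseudocount (0.1), the filter (none, or a mean TPM of at least 5), the trend in eBayes, a replicate block, the groups (6), the time points fitted (1), the controls (si-NT of both times combined) and each library in turn. The values relative to the median of all genes, on the ERCC scale and on the TPM scale, were added after seeing the data. ERCC scaling itself was planned. A comparison of the members' protein sequences was planned and was not run.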

Additional observations from a re-analysis of the deposited data

Results flagged for a closer look

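PPL, the desmosomal periplakin gene, had 1 library apart from the rest in the BRG1 depleted group at 72 h. The second library of siRNA 2 was at 2.83 TPM and the other 3 at 1.49 to 1.70 TPM, and the gap to the nearest library was 0.843 of the range, above the limit that Dixon's test sets for 4 samples. This was the one such value in 52 groups examined, and chance flags about 1 in 20 groups.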

How the results depend on the processing

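ERCC scaling left 0 genes with groups that did not overlap at 144 h, and the share of all genes called with it was not taken. The count of the 9 tested genes called at 144 h was 4, and 0 with ERCC scaling. It was 3 to 5 with 1 library left out. At 72 h the count was 0, and it was 1 with median-of-ratios scaling and with 6 groups, 2 with si-NT of both times combined, and 0 to 1 with 1 library left out, the 1 being CDH1 without the second siRNA 3 library of 144 h. No consistent pairing by replicate number was seen, with deviations of same-numbered libraries correlating at -0.229 to 0.3 between groups. So few libraries a group cannot exclude a batch shared by replicate number. With the replicate block 4 genes were called at 144 h and 0 at 72 h. Directions reversed with ERCC scaling for KRT18 at 144 h (-0.29), EPCAM (-0.05 at 72 h and -0.30 at 144 h) and VIM (-0.16 and -0.29). VIM was also below 0 at 72 h with median-of-ratios scaling (-0.04) and relative to the median of all genes, on the ERCC scale (-0.05) and the TPM scale (-0.02), and at 144 h with si-NT of both times combined (-0.04). With 1 library left out VIM ranged from -0.08 to 0.08 at 72 h and from -0.08 to 0.30 at 144 h. The cause of these shifts was not tested. The TM4SF1 log2 fold change stayed between -4.57 and -1.82 over all settings and both times. CLDN3 at 144 h was called by limma with 6 groups (adjusted p 0.0185) and with si-NT of both times combined (0.0249). It was not called in the main fit (0.0739), with ERCC scaling (0.577) or with the 6 libraries of 144 h alone (0.144). KRT19 did not pass a mean TPM of 5 and has no value there. The counts from the lists varied more, at 144 h from 1 to 11 for both the tight junction and the epithelial regulator lists. Where a si-NT library was the one dropped, its lone partner was assumed to vary like the other groups. Depth is unknown, so what low counts would limit cannot be stated.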
